A study of Rattus norvegicus with 18 samples.

Results

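Untrained rats of 2 colonies, one bred for running capacity and one bred for the response to training, were compared by RNA-seq of gastrocnemius muscle, a calf muscle of mixed fibre type. The 12 untrained libraries of the 18 in the series were taken, with 6 from the capacity-selected colony and 6 from the response-selected colony, and the 2 deposited count tables were joined by Ensembl gene. The capacity-selected rats were 3 high-capacity runners (HCR) and 3 low-capacity runners (LCR) of generation 33. The response-selected rats were 3 untrained high response trainers (HRT) and 3 untrained low response trainers (LRT) of generation 15. The remaining 6 libraries came from trained rats of the response lines (HRTT and LRTT) and served for reference only.

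All rats were males, and both colonies go back to the genetically heterogeneous N:NIH stock. They are outbred lines. The study states that such breeding may have fixed mutations in them, which it did not investigate. By the methods of the study, HCR and LCR rats were tested on a treadmill at 11 weeks of age and their muscles came from an archive of frozen tissue, with the age at sampling not given. HRT and LRT rats were first tested at 10 to 12 weeks of age, stayed untrained during the 8 weeks in which other rats of their lines were trained, were tested once more, and gave their muscles 48 h after that test. The colony therefore coincided with the trait selected, with the number of generations, with the history of tests and with the count table. It may also have coincided with the age at sampling and with the storage of the tissue, which was frozen in both. These cannot be told apart here, and "colony" below stands for all of them. Each group was 3 rats, and the high or low line entered the fit as a term.

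Limb muscle is built of slow fibres, which contract slowly, rely on oxidative metabolism and resist fatigue, and of fast fibres, which contract faster and draw more on glycolysis. Each fibre type carries its own isoforms of myosin chains, troponins and tropomyosin, so that slow isoforms mark slow fibres. Endurance training is known to raise oxidative capacity, and running capacity in rats is known to be heritable.

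Total counts per library ranged from 31869042 to 42172690 in the capacity-selected rats and from 32099533 to 41446415 in the response-selected rats, and between 16559 and 17668 genes had at least 1 count. The libraries were scaled by TMM factors of 0.884 in LCR 2 to 1.09 in LCR 3. LCR 2 stood apart from the other capacity-selected libraries on the first principal component, with a score of -21.0 against 17.9 to 40.3. The column headings carry an unexplained number, which was 1 or 3 in HCR, LCR and LRT and 2 in all HRT libraries. HRT therefore shared this number with no other group compared. Levels in whole muscle do not tell fewer cells of a type from less RNA per cell.

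Gene symbols were given only in the authors' tables of genes called within the lines or for training, while the count tables give Ensembl identifiers that no file pairs with symbols. Named genes are therefore described by the authors' expression level per group, a single pooled value with no error and no named unit, which was normalized within each of their comparisons separately. A gene has a level in both colonies only where the authors called it in HCR against LCR and also in at least 1 comparison of the response lines. The levels below are thus a description of a selected list and carry no test. The same group differed between 2 of these tables by a median of 0.0700% for LRT (50 genes) and 1.70% for HRT (25 genes), with a largest difference of 2.51%.

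Slow fibre genes with a level in both colonies were higher in the capacity-selected rats. Of 15 genes listed for slow fibre contraction, 10 had levels in both colonies. In all 10, HCR and LCR were both higher than every untrained response-selected group listed, which was HRT and LRT in 7 genes and LRT alone in 3 (Myl3, Tnni1 and Myh7b). All 10 also had HCR above LCR, and of all 86 genes with that order, 54 were higher in both capacity groups in the same way, as were 56 of all 130 genes with levels in both colonies. The median log2 ratio of capacity-selected over response-selected levels, each taken as a mean of log2 levels, was 2.67 for these 10 genes, beside 0.89 for the 130. These 10 were chosen as called genes, and their HRT or LRT level came in part from comparisons of trained with untrained rats. By that route a gene that rises with training enters with an untrained level below its trained one. The 86 and the 130 genes were not matched on this route.

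Tnnt1 encodes the slow isoform of troponin T, which anchors the calcium switch to the thin filament. Its level was 1565 in HCR, 549 in LCR, 98.1 in LRT and 89.1 in HRT, a log2 ratio of 3.31, the largest of the list. Tnnc1, the troponin C of slow and cardiac muscle that binds calcium, had levels of 1064 in HCR, 334 in LCR, 111 in LRT and 65.0 in HRT. Tnni1, the slow inhibitory subunit of the same complex, was listed at 1095 in HCR, 355 in LCR and 95.5 in LRT, with no HRT level. All 3 troponin subunits of the slow thin filament thus had their lowest capacity-selected level above their highest response-selected one. Tpm3, a tropomyosin of slow fibres that lies along the same filament, followed with 1292 in HCR, 394 in LCR, 98.6 in LRT and 87.1 in HRT.

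The myosin light chains of slow and cardiac muscle had the same order of groups. Myl2, the regulatory light chain, was at 638 in HCR, 208 in LCR, 60.8 in LRT and 42.1 in HRT. Myl3, the essential light chain and the highest of the slow genes, was at 3079 in HCR, 1108 in LCR and 296 in LRT. Myh7b, a slow-type myosin heavy chain, was low throughout, at 7.44 in HCR, 2.57 in LCR and 0.793 in LRT. Myoz2, a Z-disc protein of slow fibres that binds calcineurin, was at 379 in HCR, 150 in LCR, 57.5 in LRT and 27.1 in HRT. Ankrd2, a stretch-responsive ankyrin repeat protein, was at 86.2, 33.8, 11.9 and 7.54 in the same order. Casq2, the calcium store protein of the slow and cardiac reticulum, had the smallest log2 ratio of the list, 2.03, with levels of 55.6 in HCR, 29.5 in LCR, 14.6 in LRT and 6.75 in HRT.

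Across the 10 slow genes, HCR was 1.88 to 3.28 times LCR, and LCR in turn was 2.02 to 5.60 times LRT. In the 7 genes with all 4 groups, HCR was 8.24 to 17.6 times HRT, and LRT was 1.10 to 2.16 times HRT. The order HCR, LCR, LRT, HRT held in all 7 of them, and in 18 of the 75 genes listed in all 4 groups. LCR, the lower group of the capacity lines, was thus above LRT in 10 of 10 slow genes and above HRT in the 7 genes with an HRT level. The trained levels lay between the untrained levels of the response lines and those of HCR. LRTT was above LRT in 9 of 9 slow genes with both levels and above LCR in 7 of 9, but in none above HCR. HRTT was above HRT in 7 of 7 and above LCR in 0 of 8. These genes were in part listed because the authors called them for training, so that a difference between trained and untrained levels follows from the choice.

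**Figure D1:**
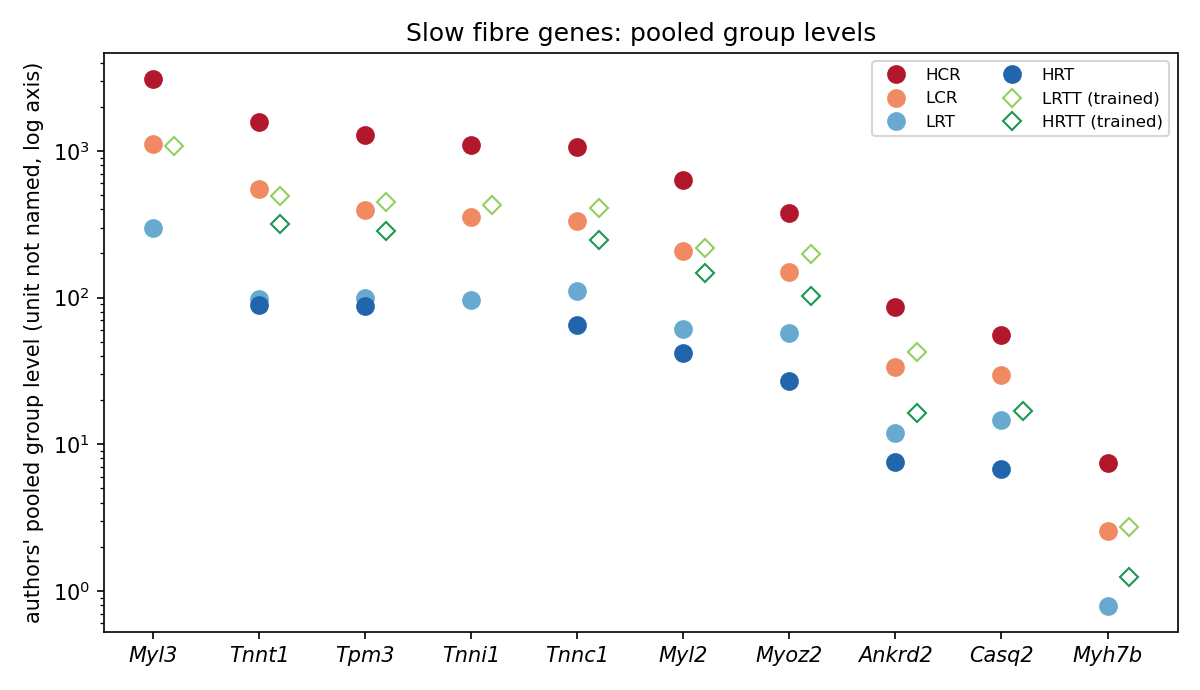
Authors' pooled expression level of 10 slow fibre genes (log axis, unit not named) in untrained HCR, LCR, LRT and HRT rats (filled circles) and in trained LRTT and HRTT rats (open diamonds); each point is 1 pooled value with no error. HCR lies highest and LCR next in every gene among the untrained groups, as in Tnnt1 with 1565 and 549 against 98.1 and 89.1.

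Of the 10 slow genes, 8 had a promoter entry in RefSeq (build GRCr8, 300 bases around the annotated start, whereas the counts rest on Rnor_6.0). The promoters of 3 are shown, that of the gene with the largest ratio and 1 example each with a CArG box and a MEF2 motif: Tnnt1 (chr1:78348785-78349084, plus strand), Myl3 (chr8:119616844-119617143, plus strand) and Myoz2 (chr2:213852729-213853028, minus strand), each written 5′ to 3′ with E boxes (CANNTG), MEF2 motifs and CArG boxes in capitals, all searched on both strands and none overlapping in these 3 sequences.
Tnnt1: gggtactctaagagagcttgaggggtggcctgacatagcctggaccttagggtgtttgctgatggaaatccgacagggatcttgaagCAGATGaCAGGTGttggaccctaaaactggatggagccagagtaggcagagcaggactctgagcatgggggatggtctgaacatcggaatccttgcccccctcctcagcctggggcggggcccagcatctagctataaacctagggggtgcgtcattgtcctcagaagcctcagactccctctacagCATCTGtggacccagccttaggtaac
Myl3: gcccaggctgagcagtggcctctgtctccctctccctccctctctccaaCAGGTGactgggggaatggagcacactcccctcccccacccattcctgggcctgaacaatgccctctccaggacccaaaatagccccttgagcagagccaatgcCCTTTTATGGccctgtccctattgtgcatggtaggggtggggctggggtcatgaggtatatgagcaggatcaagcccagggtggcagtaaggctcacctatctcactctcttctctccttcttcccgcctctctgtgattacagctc
Myoz2: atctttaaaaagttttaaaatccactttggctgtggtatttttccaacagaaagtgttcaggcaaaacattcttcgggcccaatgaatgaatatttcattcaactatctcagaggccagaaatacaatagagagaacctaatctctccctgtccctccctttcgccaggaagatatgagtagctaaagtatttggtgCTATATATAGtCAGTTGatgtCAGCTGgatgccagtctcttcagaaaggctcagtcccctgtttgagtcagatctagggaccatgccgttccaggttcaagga
Tnnt1 had 3 E boxes and 1 TATAAA, Myl3 had 1 E box and 1 CArG box, and Myoz2 had 2 E boxes and 1 MEF2 motif. An E box was present in 8 of the 8 slow promoters and in 72.1% of all 33469 promoters of the same length. MEF2 was present in 2 of 8 and in 3.29% of all, the CArG box in 1 of 8 and in 1.64%, and TATAAA in 2 of 8 and in 14.2%. These are matches of letters and no measure of binding.

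Few genes of fuel use had levels in both colonies, and they did not all lie the same way. Fabp3, which carries fatty acids through the cytosol of slow and cardiac muscle, was at 743 in HCR, 348 in LCR and 142 in LRT. Ldhb, the lactate dehydrogenase subunit of oxidative tissue, was at 290 in HCR, 102 in LCR and 40.3 in LRT. Bdh1, a mitochondrial enzyme of ketone body use, was at 3.46 in HCR and 0.933 in LCR, beside 0.372 in LRT and 0.324 in HRT. Slc16a7, a monocarboxylate transporter, was at 3.21 in HCR, 0.881 in LCR and 0.290 in HRT. Acsl3, which activates fatty acids as an acyl-CoA synthetase, lay the other way, at 24.6 in HRT, 17.1 in LCR and 9.90 in HCR. Bdh1, Slc16a7 and Acsl3 are in none of the lists and were named after their values were seen. Fabp3 was 1 of 24 listed genes of fatty acid uptake and oxidation, and Ldhb 1 of 22 genes of glycolysis and glycogen, that had levels in both colonies. These 2 lists are therefore not described as a whole. None of 15 genes of fast fibre contraction, 13 mitochondrially encoded subunits of the respiratory chain or 34 ribosomal proteins was in any of the tables.

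Some sarcomere and muscle genes outside the lists were higher in both capacity groups and others were not. Tnnt2, the cardiac troponin T, overlapped, at 3.64 in HCR, 0.905 in LRT, 0.868 in LCR and 0.279 in HRT. Myom3, an M-band protein, was at 19.3 in HCR, 9.34 in LCR, 2.66 in LRT and 1.28 in HRT. Myh6, the alpha cardiac myosin heavy chain, was at 11.5 in HCR, 4.54 in LCR, 1.46 in HRT and 0.241 in LRT, with the response lines in the opposite order to that of the slow genes. Myl10, a further regulatory light chain, was at 40.7 in HCR, 12.8 in LCR, 6.89 in LRT and 3.81 in HRT. Crym, a thyroid hormone binding protein of the cytosol, was at 5.49 in HCR, 2.43 in LCR, 1.46 in LRT and 1.09 in HRT. Slc47a1, an exporter of organic cations, was higher in both capacity groups with the lines in the other order, at 16.1 in LCR, 8.37 in HCR, 3.33 in LRT and 1.51 in HRT. Tnnt2, Myom3, Myh6, Myl10, Crym and Slc47a1 were named after their values were seen.

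Over the 75 genes listed in all 4 groups, 21 were higher in both capacity groups, 1 was lower in both and 53 overlapped, with a median log2 ratio of 0.54. The split depended on the line difference for which a gene had been listed. Of the 39 with HCR above LCR, 19 were higher in both capacity groups, against 2 of the 36 with HCR below LCR. Over all 130 genes, including 55 with only 1 response-selected group, 56 were higher, 7 were lower and 67 overlapped. A missing group can only narrow the range of the response-selected levels, so that these 55 genes separate more easily.

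The 7 genes that were lower in both capacity groups were C7, Foxp2, Six2, Acsl3, Col1a1, Ces1d and Cidec. C7, a component of the membrane attack complex of complement, was the 1 gene of them with all 4 groups, at 11.1 in LRT and 7.09 in HRT against 5.46 in HCR and 2.37 in LCR. Foxp2, a forkhead transcription factor, was at 41.3 in LRT, 10.1 in LCR and 1.35 in HCR. Six2, a homeobox transcription factor, was at 33 in LRT, 19.0 in LCR and 7.40 in HCR. Both transcription factors were higher in LCR than in HCR and higher again in LRT, and neither had an HRT level. In trained rats Foxp2 was at 1.13 in LRTT and 149 in HRTT, and Six2 was at 20.4 in LRTT. Foxp2 thus also varied widely within the response-selected colony, with LRTT below HCR and LCR. Col1a1, the main chain of fibrillar collagen I, was at 30.6 in LRT, 21.5 in HCR and 9.26 in LCR. Foxp2, Six2 and C7 are in none of the lists and were named after their values were seen.

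Markers of other cell types did not all move with the colony. Of 5 adipocyte genes with levels in both colonies, 2 were higher in the capacity groups, 1 was lower and 2 overlapped. Adipoq, the hormone adiponectin, was at 20.3 in LRT, 9.72 in HCR, 8.30 in HRT and 3.78 in LCR, and Plin1, a coat protein of lipid droplets, was at 3.10, 1.41, 1.29 and 0.543 in the same order. Cidec, another lipid droplet protein, was at 2.07 in LRT, 1.25 in HCR and 0.298 in LCR, whereas the related Cidea was at 7.03 in HCR, 2.65 in LCR and 1.26 in LRT. Agpat2, an enzyme of triglyceride synthesis, was at 7.45 in HCR, 3.28 in LCR and 2.26 in LRT. Apln, the 1 gene of the endothelial list with levels in both colonies and a secreted peptide of vessel growth, was at 2.44 in HCR, 1.24 in LCR and 1.22 in LRT. Ces1d, a carboxylesterase found in fat and liver, was at 8.73 in LRT, 5.02 in HCR and 1.46 in LCR. S100b and Mbp, listed as markers of Schwann cells, overlapped, with S100b at 6.39 in LRT, 4.37 in HCR, 3.12 in HRT and 2.12 in LCR. The damage and regeneration genes Ankrd1, Cdkn1a and Igfn1 overlapped as well, with Ankrd1 at 31.3 in LCR and 30.1 in LRT against 8.04 in HCR and 7.09 in HRT.

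Red cell genes were listed for the capacity lines, with Hba-a2, an alpha chain of haemoglobin, at 928 in HCR and 317 in LCR. Its level was 25.4 in LRTT and 42.3 in HRTT, and the untrained response-selected groups were not listed. Hbb, a beta chain, and Alas2, the erythroid enzyme of haem synthesis, were listed for HCR (684 and 6.21) and LCR (377 and 2.19) alone. The amount of blood left in the samples was not tested as a part of the colony difference. Of 4 endothelial and 6 leukocyte markers none was listed, and of 8 markers of skeletal muscle fibres only Myh7, the main slow myosin heavy chain, was listed, at 41.6 in LRT and 210 in LRTT. The tissue could therefore not be checked against its markers in the counts.

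In the counts, 13594 of 32882 genes had enough reads to enter the fit. Colony and line were terms of a quasi-likelihood model in edgeR, and a gene counted as called where its p, adjusted by Benjamini-Hochberg over all tested genes, was under 0.05 and its fold change exceeded 1.5. The colonies differed in 174 genes, 1.28% of those tested, of which 89 (0.655%) were higher in the capacity-selected and 85 (0.625%) in the response-selected rats. This split depended on single libraries, with 138 higher and 195 lower in the capacity-selected rats without HCR 1, 231 and 153 without LCR 2, 47 and 25 without HCR 3, 25 and 13 without HRT 2, and 58 and 32 without LRT 1. By an unadjusted p under 0.05, 2347 genes (17.3%) differed. In 251 tested genes (1.85%), the 6 capacity-selected and 6 response-selected libraries did not overlap, and these included 59 of the 89 and 43 of the 85 called genes. For comparison, the line term of the same fit called 1 gene, or 0.00736% of those tested, with 1015 at an unadjusted p under 0.05 and 34 called by DESeq2, and in edgeR it called 2 genes without HCR 2, LCR 3, HRT 3 or LRT 2. The count of 174 depended on single libraries. The number of the column headings could not be separated from the joint colony difference. HRT alone carries its number, so that with this number as a covariate beside the line term the colony term becomes LCR against LRT. That fit called 8 genes, 5 higher and 3 lower in LCR, a count to be read beside the one for LCR against LRT below and not beside 174. Leaving out 1 library gave 38 genes without HRT 2, 51 without LRT 3, 58 without LCR 1, 72 without HCR 3 or HRT 3, 75 without HCR 2, 90 without LRT 1 and 98 without LCR 3. The count was higher without HCR 1 (333) or LCR 2 (384). A test against the fold change of 1.5 itself (glmTreat) left 5 genes, whereas DESeq2 called 550, which contained all 174.

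The larger differences were mostly towards the capacity-selected rats. The 89 genes that were higher in the capacity-selected rats had a median log2 fold change of 1.18, up to 3.9, and 16 of them exceeded a 4-fold difference. These 16 had group means of 0.0208 to 23.8 CPM in HRT and 0.0328 to 25.4 CPM in LRT. The lowest of these rest on few counts, where a fold change is imprecise. The 85 genes that were higher in the response-selected rats had a median of -1.03, down to -3.64, and 3 of them exceeded 4-fold. Together the 89 genes took 0.137 to 0.224% of each capacity-selected library and 0.0719 to 0.0894% of each response-selected one, and the 85 genes took 0.0746 to 0.106% and 0.156 to 0.220%. Neither pair of ranges overlapped, as the choice of the genes makes likely. The called genes were of modest abundance, with median levels of 5.85 and 4.18 CPM (reads of a gene scaled to the effective library size) against 9.16 CPM over all tested genes. The mean over the libraries was under 1 CPM in 19 of the 89 and in 12 of the 85.

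**Figure D2:**
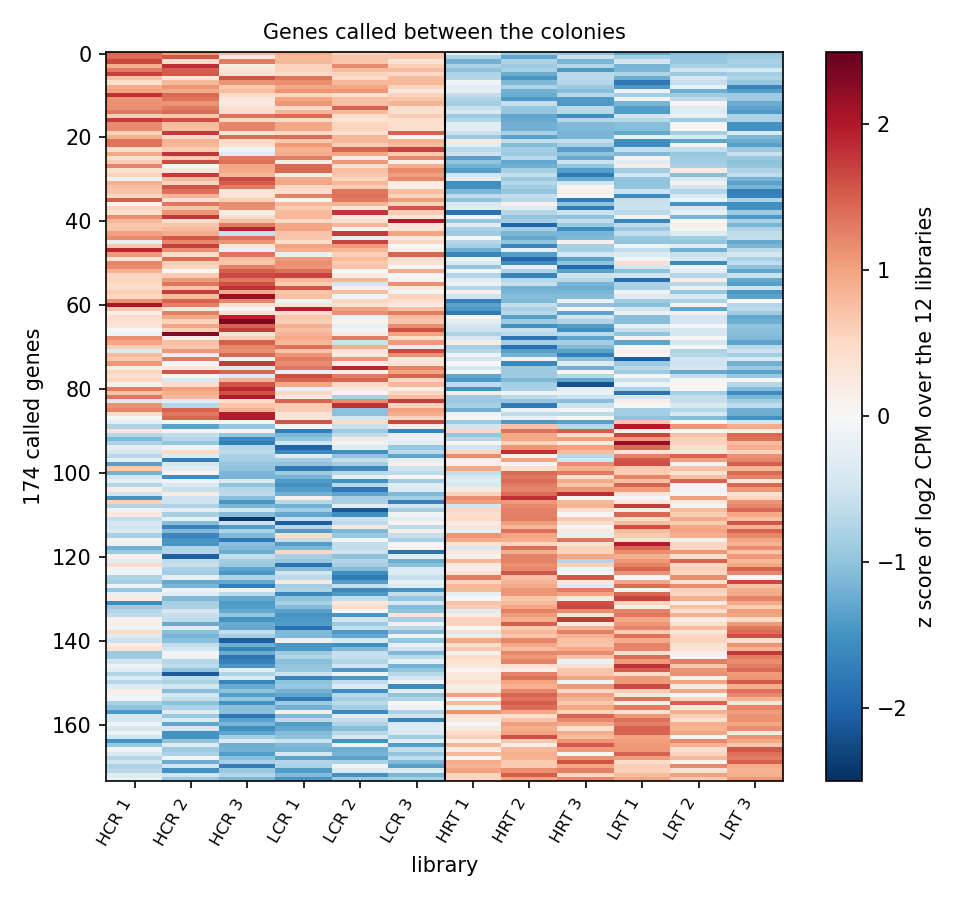
Heat map of log2 CPM in the 12 untrained libraries (columns) for the 174 genes called between the colonies (rows), as z scores within each gene, ordered by the mean difference between colonies. The upper 89 genes are higher in the mean of the 6 capacity-selected libraries and the lower 85 in the mean of the 6 response-selected ones. All 6 and 6 libraries are apart in 59 of the 89 and 43 of the 85. The genes were chosen on the difference between colonies.

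The values of 4 called genes are given by library, the pair with the smallest p in each direction among those whose colonies did not overlap. Their names are not known here. ENSRNOG00000012557 had 1.88, 1.28 and 0.936 CPM in HCR, 1.10, 0.742 and 0.874 CPM in LCR, 0.312, 0.142 and 0.118 CPM in HRT and 0.0774, 0.103 and 0.117 CPM in LRT. All capacity-selected libraries were above all response-selected ones, and the response-selected libraries held 3 to 10 counts against 22 to 66. Its mean was 1.14 ± 0.410 CPM (SD, n = 6) against 0.145 ± 0.0845 CPM (n = 6), a log2 fold change of 2.97 ± 0.30 (SE; edgeR adjusted p = 0.00203), and the trained libraries, at 0.0264 to 0.335 CPM, lay with the untrained response-selected ones.

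ENSRNOG00000058105 was far more abundant. It was at 311, 376 and 78.2 CPM in HCR, 156, 142 and 134 CPM in LCR, 24.8, 13.4 and 31.6 CPM in HRT and 22.8, 19.6 and 21.3 CPM in LRT. The lowest capacity-selected library was HCR 3, and it was still above every response-selected library. The mean was 199 ± 117 CPM (SD, n = 6) against 22.3 ± 6.02 CPM (n = 6), a log2 fold change of 3.11 ± 0.35 (SE; edgeR adjusted p = 0.00686), and the 6 trained libraries lay at 9.88 to 24.8 CPM. With the heading number as a covariate, where the colony term is LCR against LRT, its log2 fold change was 2.76 (edgeR adjusted p = 0.0969). Without the covariate LCR against LRT gave 2.76 (edgeR adjusted p = 0.0788). The called genes ENSRNOG00000029886, ENSRNOG00000047321 and ENSRNOG00000000167 shared its pattern, each with HCR 1 and HCR 2 highest and HRT 2 lowest of the untrained libraries. Whether any of them is a red cell gene was not determined, since identifiers and symbols could not be paired. Residual blood as a part of their colony difference, or that of other called genes, was not tested.

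In the other direction, ENSRNOG00000047712 had 0.912, 0.544 and 0.468 CPM in HCR, 0.366, 0.540 and 0.574 CPM in LCR, 1.5, 2.04 and 2.33 CPM in HRT and 1.99, 1.59 and 2.15 CPM in LRT. The colonies did not overlap, with means of 0.567 ± 0.185 CPM (SD, n = 6) and 1.93 ± 0.325 CPM (n = 6) and a log2 fold change of -1.77 ± 0.22 (SE; edgeR adjusted p = 0.00686). Among trained rats, LRTT 1 was at 0.281 CPM, below all 12 untrained libraries. ENSRNOG00000001229 had 8.61, 8.13 and 7.56 CPM in HCR, 6.73, 5.87 and 6.62 CPM in LCR, 11.4, 15.6 and 11.3 CPM in HRT and 12.3, 13.3 and 12.7 CPM in LRT. Its difference was the smallest of the 4, with a log2 fold change of -0.83 ± 0.11 (SE; edgeR adjusted p = 0.00878) and means of 7.25 ± 1.03 CPM (SD, n = 6) and 12.8 ± 1.58 CPM (n = 6), and LRTT 1 was again low at 5.68 CPM. With the heading number as a covariate, where the colony term is LCR against LRT, the log2 fold changes of these genes were -1.97 and -0.99 (edgeR adjusted p = 0.0634 for both), and without the covariate LCR against LRT gave -1.95 (adjusted p = 0.0473) and -1 (adjusted p = 0.0374).

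**Figure D3:**
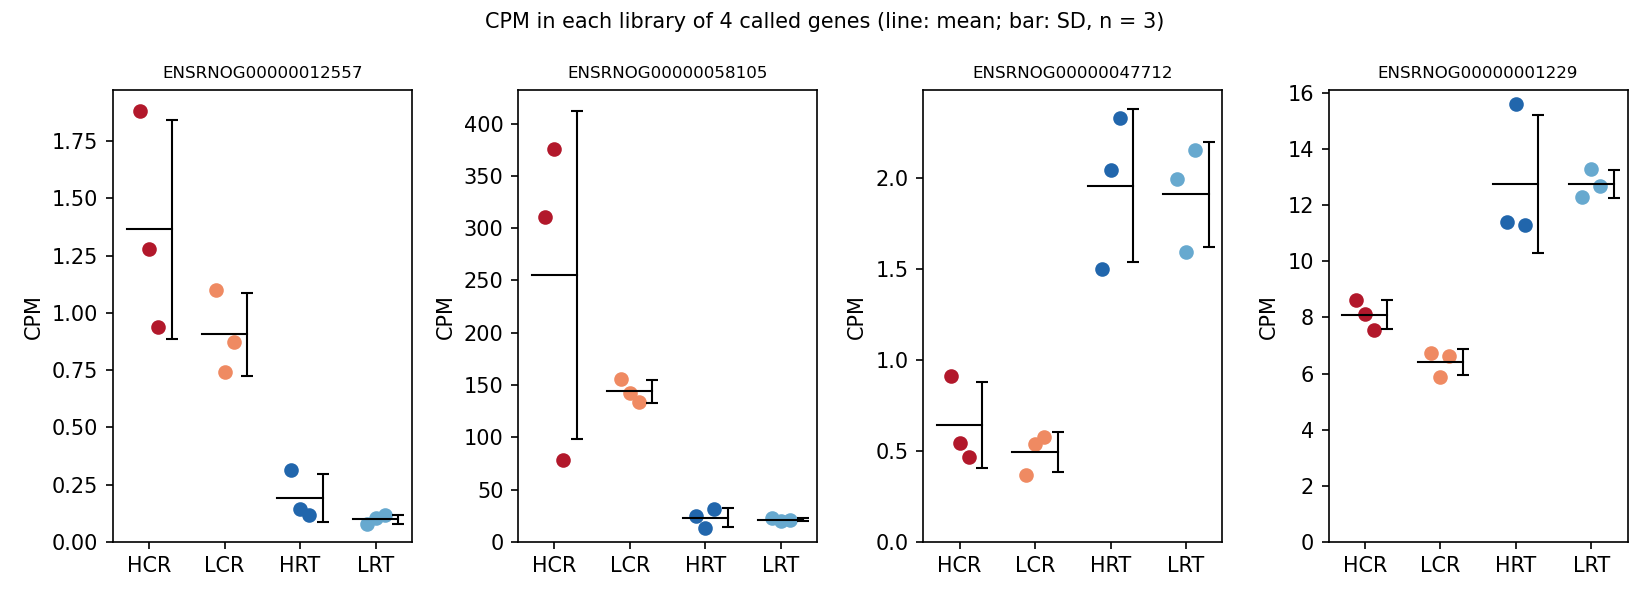
CPM in each untrained library (points) of 4 genes called between the colonies, by group, with the mean (line) and SD (bar, n = 3 per group). In each panel the 6 capacity-selected libraries (HCR, LCR) do not overlap the 6 response-selected ones (HRT, LRT), as in ENSRNOG00000058105 with 78.2 to 376 CPM against 13.4 to 31.6 CPM.

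The colony difference was also taken within the high and within the low lines, from a fit with a term per group. HCR and HRT differed in 23 genes (0.169% of those tested), with 17 higher and 6 lower in HCR. The number depended on the setting. DESeq2 gave 243 higher and 136 lower in HCR, an adjusted p under 0.10 gave 76 and 39, and glmTreat gave 4 and 1. LCR and LRT differed in 13 genes (0.0956%), with 8 higher and 5 lower in LCR. The direction of this split turned with the setting. DESeq2 gave 81 higher and 173 lower in LCR, and an adjusted p under 0.10 gave 17 and 22. With no filter beyond 1 count the split was 10 and 12. It was 6 and 4 with 10 counts in every library, and 12 and 5 with only LCR and LRT in the fit. Fewer rats entered each of these contrasts than the joint one. Of the 23 genes, 20 had the same sign in LCR against LRT, 10 of them with a fold change above 1.5, and 1 was called there. Of the 13 genes, 13 had the same sign in HCR against HRT and 7 of them exceeded 1.5-fold. Over all tested genes, 57.5% had the same sign in both lines, and no libraries are shared between these contrasts.

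Both counts changed with single libraries. HCR against HRT gave 2 genes without HRT 2 or HRT 3, 3 without HCR 2 and 9 without HRT 1, but 41 without HCR 1 and 37 without LCR 2. With only the HCR and HRT libraries in the fit, 1 gene was called. LCR against LRT gave 0 genes without LCR 2 or LCR 3, 2 without LCR 1, LRT 2 or LRT 3, 5 without HCR 2, 6 without HRT 1 and 8 without HRT 2 or LRT 1, but 26 without HCR 1 and 24 without HCR 3. LCR and LRT carry the same set of heading numbers, and with these as a covariate and only these 6 libraries in the fit, 8 genes were called, against 17 in that fit without the covariate.

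Whether the colony difference itself differed between high and low lines was tested as (HCR minus HRT) minus (LCR minus LRT). edgeR called 0 of 13594 genes (0%), with a smallest adjusted p of 0.119 and 951 genes (7%) at an unadjusted p under 0.05, while DESeq2 called 38. The edgeR test called 2 genes without HCR 1 or HCR 3, 1 without HRT 1 and 3 without LCR 3. A p that misses the threshold does not show that the lines had the same colony difference. All 89 and all 85 genes of the joint fit had the same sign in both lines, as its call favours, and 74 and 69 of them exceeded a fold change of 1.5 in both.

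**Figure D4:**
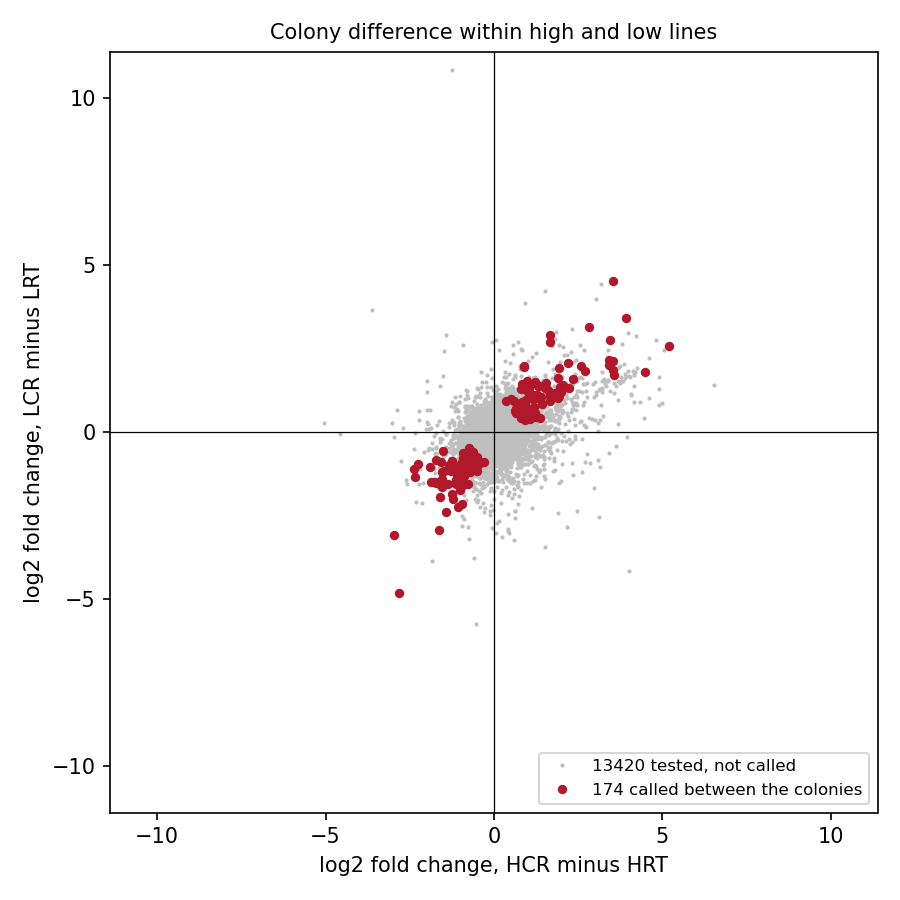
Log2 fold change of each tested gene in HCR minus HRT (x axis) against LCR minus LRT (y axis); red points are the 174 genes called between the colonies and grey points the other tested genes. All called genes lie in the upper right or lower left part, a direction that their choice favours.

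Among all 24 possible orders of the 4 group means, HCR above LCR above LRT above HRT, the order of the slow fibre genes, was found in 861 tested genes (6.33%) and in 30 of the 89 called genes with the higher capacity-selected level. The order with HRT above LRT was found in a further 805 tested genes (5.92%) and 30 of the 89. Log2 fold changes as large as the smallest ratio of the slow genes, 2.03, were found in 106 tested genes, of which 16 were called, and 40 tested genes, of which 9 were called, reached the median of 2.67. Whether the slow genes are among these was not determined, since identifiers and symbols could not be paired. The 16 called genes had group means of up to 273 CPM in HCR and 144 CPM in LCR. Pooled levels of the slow genes reached 3079 in HCR and 1108 in LCR (Myl3). The unit of those levels is not named, so that the scales were not compared.

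The libraries as a whole were compared by the Euclidean distance between log2 CPM profiles over the 500 most variable genes. It averaged 53.7 ± 12.3 (SD) over 36 pairs of libraries from different colonies and 43.9 ± 9.36 over 30 pairs of the same colony. The difference of 9.72 gave p = 0.0200 in an exact permutation test, one-sided, with colony labels exchanged within the high and within the low lines (400 arrangements, smallest possible p = 0.00500). Without LRT 3 the difference was 7.62 (p = 0.05, exact permutation test), and without LCR 2 it was 14.6. The nearest library was of the same colony for 11 of the 12 libraries, LCR 2 being the exception.

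The first principal component, with 52.1% of the variance, set most libraries apart by colony, and the second, with 9.71%, set LCR apart. First component scores were 19.1, 22.5 and 40.3 in HCR, 17.9, -21.0 and 23.5 in LCR, 5.55, -29.0 and -34.9 in HRT and -25.3, 8.63 and -27.4 in LRT. The response-selected libraries HRT 1 and LRT 2 lay nearest to the capacity-selected ones, and LCR 2 lay among the response-selected ones. The median SD of log2 CPM between the 3 rats of a group, over genes, was 0.26 in HCR, 0.27 in LCR, 0.24 in HRT and 0.17 in LRT.

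**Figure D5:**
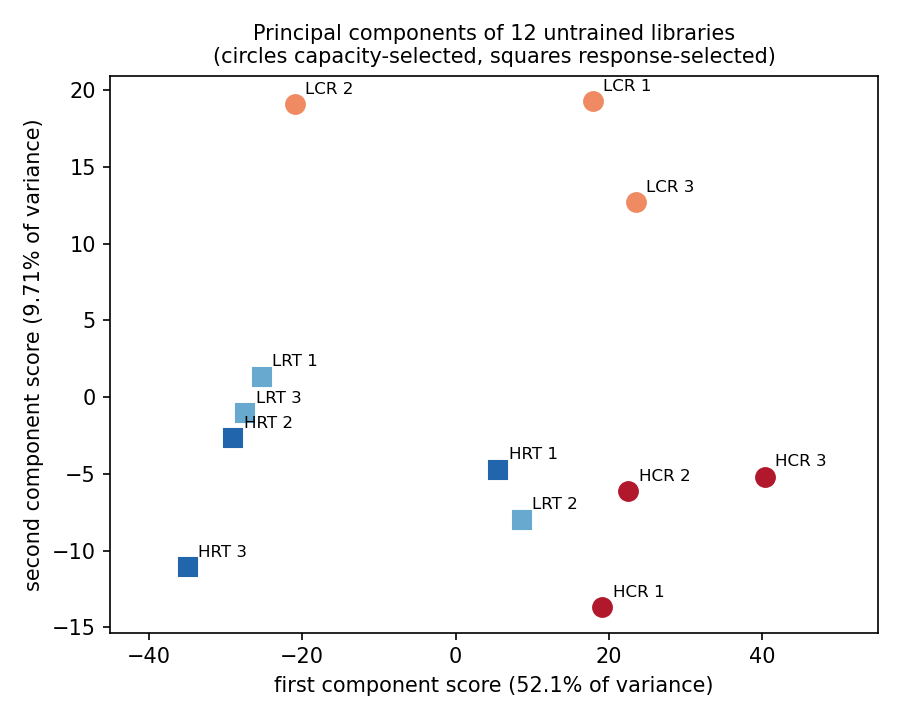
Scores of the 12 untrained libraries on the first (52.1% of variance) and second (9.71%) principal components of log2 CPM over the 500 most variable genes; circles are capacity-selected (HCR, LCR) and squares response-selected (HRT, LRT) libraries. 5 of 6 capacity-selected libraries score 17.9 to 40.3 on the first component, and LCR 2 scores -21.0.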

How the data were processed

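Gastrocnemius libraries were grouped by the labels of the samples. The authors deposited raw counts per Ensembl gene (featureCounts 1.6.4, Ensembl release 91 of Rnor_6.0, strand setting 0, reads shared by overlapping genes counted for each) in 2 tables, unfiltered. The submitters' processing notes name TopHat2 2.1.1, while the headers carry alignment names of the form that STAR writes. The library kit is an unstranded one by the labels and a stranded one by the methods. The authors' tables of called genes give a pooled signal per group from Cuffdiff, with no unit; their fold changes, p-values and q-values were not used.

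Both count tables were joined by identifier. Counts were tested in R 4.3.3 with edgeR 4.0.16 (filterByExpr, count minimum 10, TMM, robust quasi-likelihood fit, Benjamini-Hochberg), with DESeq2 1.42.0 as an alternative. Log2 CPM used a prior count of 2. The colony test was tried on simulated data. No replicate was a copy of another, as the chi-square between libraries of a group was at least 16.6 per gene. By the rule for named genes, identifiers were taken by smallest p among called genes with no overlap of the colonies, at most 2 per direction, since 0 of 32882 identifiers matched the reference table. Listed genes with levels in both colonies were named. Members and lists were chosen with earlier results of these data known. 1 marker gene is not reported here.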

Additional observations from a re-analysis of the deposited data

Results flagged for a closer look

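2 results had a library far from the other 5 of its colony by Dixon's criterion, out of 18 checks, and chance flags about 1 in 20 such groups. ENSRNOG00000012557 was at 0.312 CPM in HRT 1 against 0.0774 to 0.142 CPM in the other response-selected libraries. LCR 2 scored -21.0 on the first principal component against 17.9 to 40.3 in the other capacity-selected libraries.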

How the results depend on the processing

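Counts are given in the order colony, HCR against HRT, LCR against LRT, colony by line, and line. DESeq2 called 550, 379, 254, 38 and 34 genes. With the replicate block the first 3 were 71, 11 and 0 and the line term called 2; the replicate numbers were not taken to pair the libraries, since same-numbered libraries correlated at -0.34 to -0.13 between colonies and, within colonies, at -0.23, 0.22 and 0.20 for HCR with LCR and at -0.28, -0.21 and 0.10 for HRT with LRT. Against a fold change of 1.5 (glmTreat) the first 3 were 5, 5 and 1. At an adjusted p under 0.10 they were 385, 115 and 39, and the line term called 3. With no filter beyond 1 count, the last 4 were 53, 22, 2 and 2, and with 10 counts in every library the line term called 0. With the heading number as a covariate the colony term becomes LCR against LRT, which gave 8 genes with all 12 libraries in the fit and 8 with only the 6 of these groups, so that no colony difference that includes the high lines was estimated with it. Only the 2 groups in the fit gave 1 for HCR against HRT. Without 1 library the counts ranged from 38 to 384, 2 to 41, 0 to 26, 0 to 3 and 1 to 2, and the difference of distances from 7.23 to 14.6, with 7.62 (p = 0.05, exact permutation test) without LRT 3. RLE scaling, dropping the line term (173) and fitting all 18 libraries (170) left the colony count within 1.5 times of 174. None of the 4 identifiers changed direction in any alternative that tested it, and ENSRNOG00000012557 was not tested with 10 counts required in every library; with the heading number 3 missed the threshold in p (0.0634 to 0.0969) at log2 fold changes of 2.76, -1.97 and -0.99, and ENSRNOG00000001229 also lost its call under glmTreat. The cause of these changes was not tested. Genes at 3 counts or fewer in all 6 response-selected libraries and above 3 in all capacity-selected ones numbered 4, none with more than 15 counts and none tested, so that depth left little to read there.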
